A study of Mus musculus with 4 samples.

Results

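The clustered histone genes of the mouse were followed in single-cell RNA-seq of the stromal vascular fraction (SVF) of brown adipose tissue, the cells other than mature adipocytes. The members were all gene symbols starting with Hist1h, Hist2h, Hist3h or Hist4h, which gave 67 of the 32285 genes in the files. Of these, 54 Hist1h genes lie on chromosome 13, 10 Hist2h genes on chromosome 3, 2 Hist3h genes on chromosome 11 and 1 Hist4h gene on chromosome 6. They encode the linker histone H1 (6 genes) and the core histones H2A (18 genes), H2B (18 genes), H3 (12 genes) and H4 (13 genes). The rule used the symbols alone.

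Core histones form the spool that DNA is wound around, and the linker histone H1 binds where DNA enters and leaves it. Cells need large amounts of new histone protein while they copy their DNA, and the clustered genes are the source of that supply in S phase. Their mRNAs are unusual: most have no intron and end in a short stem-loop, which the stem-loop binding protein Slbp recognises, in place of a poly(A) tail. Some members can also make longer, polyadenylated mRNAs, which are known in cells that no longer divide. The library kit used here primes on poly(A), so a unique molecular identifier (UMI, a tag that marks 1 captured molecule) of a member counts only RNA that such priming could reach.

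The study has 4 libraries, each the pooled SVF of 3 mice according to its figure legends, with 1 library in a group. The WT library came from wild-type mice labelled 10 weeks old, and 2 libraries came from db/db mice, which carry a mutated leptin receptor and become obese and diabetic, at 8 and 16 weeks. The HFD library came from mice given a high-fat diet and is also labelled 10 weeks, although the methods start that diet at 10 weeks of age and run it for 10 weeks. All labels name the strain C57BL6/J, while the methods name the db/db mice as B6.BKS(D)-Leprdb/J. The methods state male mice, and cells were sorted just before capture, with the gate not given in the sources used here. Lepr itself had 25 UMIs in WT, 16 in db/db at 8 weeks, 1 in db/db at 16 weeks and 8 in HFD, and since the db allele alters splicing, such 3′ counts do not check the genotype.

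After the quality limits, 28887 of 50581 deposited barcodes and 157610655 UMIs remained, with 5462 to 11648 barcodes and 26558173 to 53420105 UMIs in a library. The HFD library kept 31.3% of its barcodes, against 63.6 to 89.5% in the others. In it 68.5% of barcodes had at least 15% mitochondrial UMIs, against 1.04 to 35.6% in the others. Values of HFD therefore describe the smaller part of its barcodes. The db/db 16-week library stood apart. Its Xist level was 207 CPM, a count scaled to the total of its library, against at most 0.688 in the others, its summed Y-linked genes reached 17.7 CPM against 164 to 188, and its median mitochondrial share was 0.799% against 4.29 to 10.5%. Such Xist and Y-linked levels are at odds with cells from male mice only, so sex may also differ between this library and the others. The counts of members called in each test are therefore also given without it, for the difference between gates within a range. Splits by annotated 3′ end and histone type, the gene lists and most named fold changes are given only with it. Barcodes were gated on raw UMIs of 4 lists of 8 markers each, which left 8.65 to 16.9% of barcodes of a library ungated. The macrophage-gated sums held all 8 macrophage markers at 4095 to 12529 CPM, and the stromal-gated sums held all 8 stromal markers at 34123 to 52832 CPM. Any 2 libraries shared 16 to 97 barcode sequences, at most 0.629% of the smaller library.

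The 3′ ends of the members come first, because the library kit primes on poly(A). Sequenced ends were not examined, so how the annotated ends relate to the counts was not tested. In the GENCODE vM21 annotation of GRCm38, all 67 members were found as protein-coding genes, and 62 had a single coding transcript. The 16-base stem-loop, searched by its consensus, was found after the stop codon in 44 of 67 members (65.7%), against 79 of all 55450 annotated genes with a match anywhere in a transcript (0.142%). It could not be found in transcripts annotated to end at the stop codon, so the other members may hold it unannotated. The commonest form was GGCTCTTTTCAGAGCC, in 26 members. The sites below are shown 5′ to 3′ with the stem-loop in capitals and 5 flanking bases where the transcript has them, for members whose counts are described next.

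Hist1h2ap, chr13:21833026-21833049, minus strand: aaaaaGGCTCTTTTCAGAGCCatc
Hist1h2ae, chr13:23570663-23570688, minus strand: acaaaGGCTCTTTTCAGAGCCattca
Hist1h1c, chr13:23739507-23739532, plus strand: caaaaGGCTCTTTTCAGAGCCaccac
Hist1h1e, chr13:23621777-23621802, minus strand: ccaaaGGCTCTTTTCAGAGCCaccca
Hist3h2a, chr11:58955167-58955192, plus strand: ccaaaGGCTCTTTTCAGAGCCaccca
Hist1h3c, chr13:23745042-23745067, minus strand: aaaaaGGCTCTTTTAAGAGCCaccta
Hist1h4d, chr13:23581945-23581970, plus strand: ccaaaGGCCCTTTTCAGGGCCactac
Hist1h4i, chr13:22040961-22040986, minus strand: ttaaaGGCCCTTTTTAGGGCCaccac

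The stem-loop letters hardly differ between these genes, but what the annotation places after them does. The annotated transcript of Hist1h2ap, an H2A gene, stops 3 bases after the stem-loop. That of Hist1h1c, a linker histone gene, runs on for 840 bases, Hist1h1e for 1153, Hist1h4d for 770 and Hist3h2a for 1643. Hist1h2bc, an H2B gene at chr13:23684199-23692908 on the plus strand, has no stem-loop in its annotated transcript, which continues 742 bases past the stop codon. Members with more than 200 annotated bases after the stop codon were called long-end (24 genes) and the other 43 short-end. Several short-end members, Hist1h1b and Hist2h2bb among them, have 0 annotated bases after the stop codon. Where the mRNAs of such members end is not given by the annotation. The division was drawn after counts had been seen and follows the annotation, not sequenced ends. Hist1h2ae with 199 bases and Hist1h2bg with 200 lie just inside the short group, and Hist3h2ba with 213 and Hist1h1t with 230 just outside it. A poly(A) signal (AATAAA or ATTAAA) stood in the last 50 bases of 13 of 24 long-end and 4 of 43 short-end transcripts.

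Near-identical copies limit what single members can say. Over the last 300 annotated bases, 18 members had only 50-base stretches that no other gene holds, while 34 shared more than 50% of theirs with other genes. Hist1h2ap shared 100% with 24 other genes, Hist1h3e and Hist1h3f shared 100%, and Hist1h1e overlaps Hist1h2be on the same strand, so reads of these genes could be credited to another copy. In all, 7 members overlap a gene on the same strand. Hist3h2a overlaps Trim17, Hist1h2ac overlaps Gm24991, Hist2h2aa1 and Hist2h3c1 overlap Gm20634, and Hist2h2bb overlaps Gm42743. In addition, 21 members overlap a gene on the opposite strand. By the shared stretches, Hist1h2bc (3.19% shared), Hist1h1c, Hist1h1b, Hist1h4d and Hist3h2a (0% each) were nearly or fully distinct, although Hist3h2a has the same-strand overlap.

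The promoters of members whose UMIs moved in different ways are shown as 150 bases before the annotated start, with TATAAA and CCAAT, or their reverse complements, in capitals (RefSeq, GRCm38). Hist1h1b and Hist1h2ap are short-end members and Hist1h4d and Hist1h1c long-end members. Hist1h1b has 0 annotated bases after the stop codon.

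Hist1h1b, chr13:21780626-21780775, minus strand: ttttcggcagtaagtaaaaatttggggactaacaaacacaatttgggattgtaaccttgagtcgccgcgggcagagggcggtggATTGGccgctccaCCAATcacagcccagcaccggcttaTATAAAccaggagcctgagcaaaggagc
Hist1h2ap, chr13:21833508-21833657, minus strand: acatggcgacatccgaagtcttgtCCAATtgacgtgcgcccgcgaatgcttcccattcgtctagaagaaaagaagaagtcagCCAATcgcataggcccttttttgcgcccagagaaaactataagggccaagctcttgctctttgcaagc
Hist1h4d, chr13:23581418-23581567, plus strand: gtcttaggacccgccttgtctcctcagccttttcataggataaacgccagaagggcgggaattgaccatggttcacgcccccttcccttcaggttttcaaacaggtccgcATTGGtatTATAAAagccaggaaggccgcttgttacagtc
Hist1h1c, chr13:23738657-23738806, plus strand: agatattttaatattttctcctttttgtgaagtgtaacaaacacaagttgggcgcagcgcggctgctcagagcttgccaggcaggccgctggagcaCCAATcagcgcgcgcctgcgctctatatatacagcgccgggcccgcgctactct

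Over the 300-base window from 250 bases before to 50 after the start, read on both strands, 62 members had an entry. TATAAA stood in 35 of them (56.5%) against 13.6% of all 32851 promoters of that length, and CCAAT in 53 (85.5%) against 37.4%. CCAAT was present in all 50 entries of H1, H2A, H2B and H3 genes and in 3 of 12 of H4 genes. These matches describe letters in a window and were not tested for binding.

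Over the quality-passing barcodes the 67 members held 126519 UMIs. Of the 67, 65 had at least 1 UMI, 35 had at least 200, 30 had fewer (1903 UMIs in all), and Hist1h4m and Hist1h2ba were at 0 in every deposited barcode. Few genes carried the total: Hist1h2bc, Hist1h2ap and Hist1h1c held 59.3% of it, and the first 7 members 80.7%. Counts are compared here between libraries for the same gene, since annotated ends differ between members.

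Hist1h2bc had 6801 UMIs in WT, 9225 in db/db at 8 weeks, 6780 in db/db at 16 weeks and 4145 in HFD, or 151, 173, 255 and 127 CPM. Hist1h1c had 6132, 7742, 5299 and 2286 UMIs in the same order, or 136, 145, 200 and 70.1 CPM. These long-end genes were spread over all libraries, with the highest CPM in the 16-week library and the lowest in HFD.

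Hist1h2ap behaved differently from them. It had 1309 UMIs in WT, 2754 in db/db at 8 weeks, 22337 in db/db at 16 weeks and 265 in HFD, or 29.1, 51.6, 841 and 8.13 CPM. The 16-week library thus held 83.8% of all its UMIs, and there it made up 39.1% of the UMIs of the members, against 2.26 to 7.79% in the other libraries. Relative to WT its log2 ratio was 4.85 at 16 weeks, 0.83 at 8 weeks and −1.84 in HFD.

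Among the linker histones, Hist1h1e reached 42.2, 57.3, 178 and 19.1 CPM in WT, db/db at 8 weeks, db/db at 16 weeks and HFD, and Hist1h1b 8.77, 38.1, 136 and 20.5 CPM. Hist1h2ae, a second H2A gene, reached 10.1, 25.6, 129 and 10.5 CPM, and Hist1h4d, an H4 gene, 20.6, 33.4, 48.5 and 12.2 CPM. All 4 were highest at 16 weeks, and Hist1h1b was lowest in WT while Hist1h1e and Hist1h4d were lowest in HFD.

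The remaining 28 members with at least 200 UMIs had totals from 299 to 1899 over the 4 libraries. They include the H1 genes Hist1h1d (1671 UMIs) and Hist1h1a (630), and the H2A genes Hist2h2aa1 (1899), Hist3h2a (1783), Hist1h2ac (1564), Hist2h2ac (1542), Hist1h2ab (822) and Hist1h2af (425). The H2B genes were Hist1h2be (789), Hist2h2bb (398), Hist1h2br (344), Hist2h2be (319), Hist1h2bj (317) and Hist1h2bb (311). The H3 genes were Hist1h3e (1100), Hist1h3c (833), Hist1h3f (721), Hist2h3c1 (650), Hist1h3d (649), Hist1h3b (412), Hist1h3a (299) and Hist2h3c2 (299), and the H4 genes Hist1h4h (1683), Hist1h4i (1338), Hist4h4 (622), Hist2h4 (379), Hist1h4c (363) and Hist1h4a (358).

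**Figure D1:**
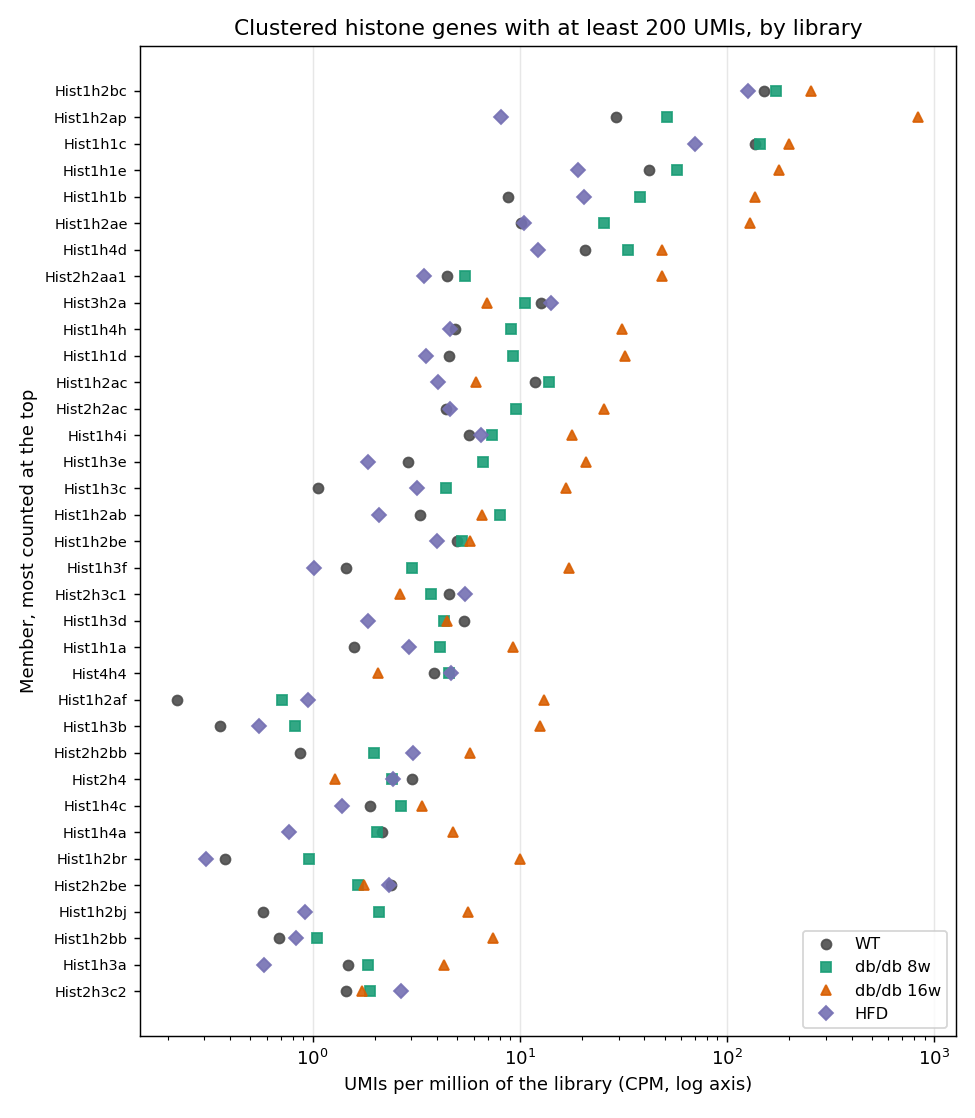
Level in CPM in each library (log axis) for the 35 members with at least 200 UMIs, ordered by total, with 1 point per library. Hist1h2ap spans 8.13 to 841 CPM across libraries, while Hist1h2bc spans 127 to 255 CPM, and 26 of the 35 members are highest in the db/db 16-week library.

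Summed over the members, the level was 496 CPM in WT (95% Poisson interval 489 to 502), 662 in db/db at 8 weeks (655 to 669), 2150 in db/db at 16 weeks (2132 to 2167) and 360 in HFD (354 to 367). The log2 ratios to WT were 0.42, 2.12 and −0.46, and all 3 share the single WT library. With 1 library in a group no test between groups was possible, and all intervals in these results cover counting error only. The 16-week ratio was 1.49 without Hist1h2ap, an alternative chosen after its counts were seen. Of the 35 members with at least 200 UMIs, 26 had an interval above WT and 5 below it at 16 weeks, 24 and 4 at 8 weeks, and 6 and 14 in HFD.

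By histone type, H2A genes were at 77.2 CPM in WT, 128 in db/db at 8 weeks, 1086 in db/db at 16 weeks and 49.2 in HFD, and they made up 50.5% of member UMIs at 16 weeks against 13.7 to 19.3% elsewhere. H2B genes had 163, 190, 308 and 144 CPM in the same order, H1 genes 193, 254, 556 and 116, H3 genes 19.2, 27.8, 89.2 and 17.9, and H4 genes 42.8, 62.6, 111 and 32.9. Short-end members were at 77.6, 173, 1329 and 72.1 CPM and long-end members at 418, 489, 821 and 288 CPM. The short-end log2 ratio to WT was 4.10 at 16 weeks and 1.16 at 8 weeks, where the long-end ratio was 0.97 and 0.23. Hist1h2ap, left out here after its counts were seen, made up most of the H2A and short-end sums at 16 weeks. Without it the H2A genes were at 48.1, 76.5, 244 and 41.1 CPM and the short-end members at 48.6, 122, 488 and 64.0 CPM, the short-end log2 ratio to WT being 1.33 at 8 weeks, 3.33 at 16 weeks and 0.40 in HFD.

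Barcodes with a UMI of Mki67 or Top2a, 2 genes that cells express while they cycle, made up 4.85% of barcodes in WT, 10.4% in db/db at 8 weeks, 14.8% in db/db at 16 weeks and 14.6% in HFD. These barcodes held 18.3%, 43.5%, 74.2% and 37.8% of the member UMIs. In bulk sums of a library, a change in the number of cycling cells and a change of RNA per cell cannot be told apart, so the members were next compared within gated barcodes.

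In macrophage-gated barcodes the question was which members differ between barcodes with and without a Mki67 or Top2a UMI. Clustered histone genes supply S phase, so this gate on cycling cells favoured a rise of members in advance. That members rose is therefore not read as support. The values describe which members rose and by how much. Without one, the member level was 1264 CPM in WT (812 barcodes), 722 in db/db at 8 weeks (1878), 865 in db/db at 16 weeks (1601) and 346 in HFD (1182). With one, it was 1130 CPM (131 barcodes), 1372 (635), 4896 (678) and 695 (360). The log2 ratio was therefore 0.93 at 8 weeks (0.88 to 0.97), 2.50 at 16 weeks (2.47 to 2.53) and 1.01 in HFD (0.93 to 1.09), but −0.16 in WT (−0.24 to −0.08). In WT the end classes moved in opposite directions, as long-end members went from 1146 to 851 CPM and short-end members from 118 to 279 CPM. Short-end members were higher with Mki67 or Top2a in all 4 libraries, by log2 ratios of 1.24 in WT, 2.90 at 8 weeks, 3.77 at 16 weeks and 3.98 in HFD.

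Hist1h3c, an H3 gene, shows the pattern most plainly. It had 2 UMIs in WT, 5 at 8 weeks, 8 at 16 weeks and 2 in HFD without Mki67 or Top2a, and 6, 92, 348 and 32 UMIs with it, or 0.386, 0.473, 0.806 and 0.252 CPM against 4.45, 14.9, 48.1 and 9.65 CPM. The arms did not overlap, and the fold change was 5.32 ± 0.27 on the log2 scale (SE, n = 4 libraries, edgeR quasi-likelihood test with Benjamini-Hochberg adjusted p = 4.23e-07). This test took the summed UMIs of each arm, kept library as a block and was fitted over 12199 genes.

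Of the 42 members tested, 25 rose with Mki67 or Top2a and 0 fell at an adjusted p under 0.05, against 4.12% of all tested genes that rose and 2.39% that fell. The other 25 of the 67 members fell under the minimum count, and a member could pass that minimum through the arm where it was high. Of the 17 tested members that did not pass, 7 passed the unadjusted threshold only, 6 of them higher and Hist2h3c1 lower. DESeq2 called 24 of the 42 members, all higher, against 439 of 12199 genes higher. The median log2 fold change of the 42 was 2.19, against −0.03 over all genes tested. Without the db/db 16-week library 22 of 39 members rose, against 337 of 11730 genes. The other members with the smallest adjusted p were Hist1h2af (5.30 ± 0.33), Hist1h2ae (3.55 ± 0.22), Hist1h3b (5.81 ± 0.40), Hist1h2ab (3.80 ± 0.32) and Hist1h2bj (3.19 ± 0.34), with adjusted p from 1.56e-06 to 1.43e-04 (edgeR quasi-likelihood test, Benjamini-Hochberg).

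Hist1h2ae had the highest counts of these. Its level without Mki67 or Top2a was 11.6 CPM in WT, 7.95 at 8 weeks, 20.9 at 16 weeks and 2.65 in HFD, and with it 63.0, 86.9, 362 and 41.6 CPM. Hist1h2ap rose by 3.05 ± 0.43 on the log2 scale, from 45.6, 18.4, 135 and 1.39 CPM to 86.8, 165, 2321 and 29.2 CPM. Its arms overlapped across libraries, since the 16-week barcodes without Mki67 or Top2a exceeded those with it in WT, but within every library it was higher with it.

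The 17 members that did not pass included Hist1h2bc and Hist1h1c, 2 of the 3 members with the most UMIs. Hist1h2bc was at 515, 268, 280 and 175 CPM without Mki67 or Top2a and at 332, 286, 303 and 150 CPM with it in WT, db/db at 8 weeks, db/db at 16 weeks and HFD, a log2 fold change of −0.17 ± 0.12 (n = 4). Hist1h1c was at 362, 226, 191 and 95.5 CPM and at 277, 263, 242 and 97.4 CPM, a log2 fold change of 0.04 ± 0.12. For both, the arms overlapped and the direction differed between libraries. Hist3h2a (−0.50 ± 0.25), Hist2h3c1 (−0.68 ± 0.30), Hist1h2ac (−0.21 ± 0.26), Hist2h2be (0.13 ± 0.36), Hist4h4 (0.08 ± 0.28) and Hist1h4i (0.46 ± 0.26) did not pass either.

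Split by annotated 3′ end, 17 of 21 short-end members tested rose, with a median log2 fold change of 3.09, and 8 of 21 long-end members, with a median of 0.46. The long-end members that rose were Hist1h3e, Hist1h3f, Hist1h2br, Hist1h1d, Hist1h2bh, Hist1h4d, Hist1h1e and Hist1h4c. By histone type, 4 of 5 H1, 6 of 9 H2A, 7 of 12 H2B, 5 of 9 H3 and 3 of 7 H4 members tested rose.

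Other gene lists moved in the same fit. Of 8 S-phase genes 7 rose and of 8 G2/M genes 8 rose, with medians of 1.33 and 4.12 on the log2 scale. Mki67 and Top2a, which define the arms, are themselves genes of cycling cells. A rise of cell cycle genes was therefore built into the gate and is not read as a result. The same holds for the direction of the members as a set. Of 8 histone chaperones, which carry histones to chromatin, 6 rose, led by Asf1b (2.48), Chaf1b (1.83) and Hjurp (1.48), and of 10 replacement histones tested, which are made outside S phase as well, 4 rose, led by H2afx (1.85), Cenpa (1.35) and H2afv (1.07). Of 12 genes of histone mRNA processing and transcription tested, 0 passed at the adjusted threshold (edgeR quasi-likelihood test) and 5 at the unadjusted one, and Slbp, which binds the stem-loop, had a log2 fold change of 0.37. Macrophage markers were lower for 5 of 8 genes, with a median of −0.41, and stromal markers for 4 of 8, with a median of −0.34. Of the endothelial markers 1 of 8 was lower, and of 2 T cell markers tested 0 passed. The part of these markers in the result was not tested. Median depth was also higher with Mki67 or Top2a, for instance 10263 against 5389 UMIs per barcode in WT. In barcodes of 3000 to 15000 UMIs alone 25 of 40 members rose, against 405 of 11405 genes.

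**Figure D2:**
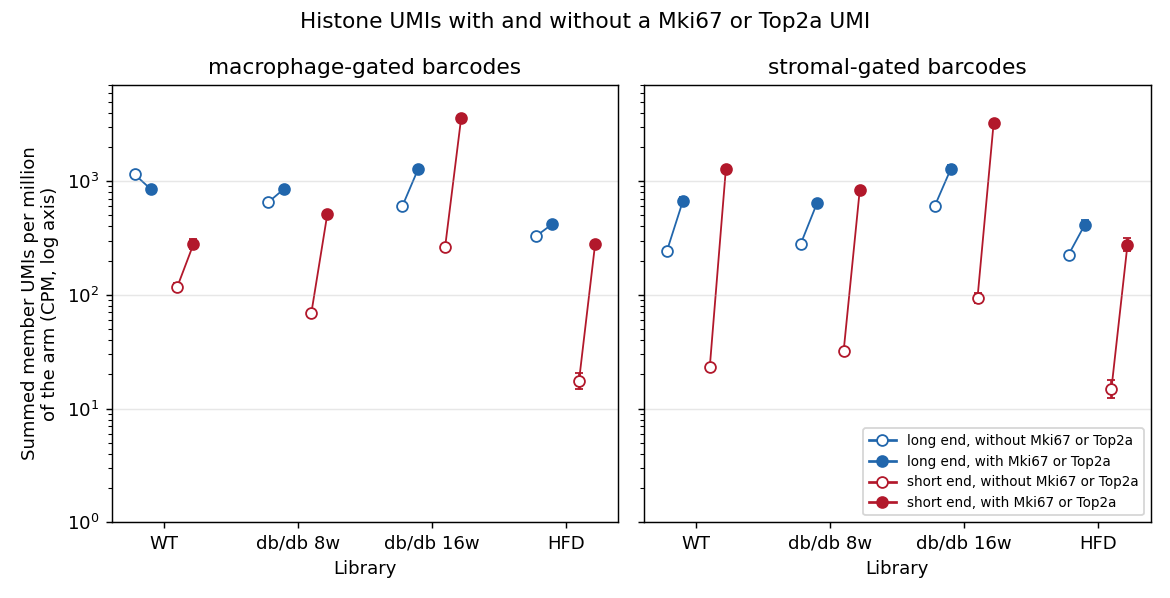
Summed level in CPM (log axis) of the 24 long-end and 43 short-end members in macrophage-gated and stromal-gated barcodes of each library, without (open) and with (filled) a Mki67 or Top2a UMI; bars are 95% Poisson intervals. Every short-end line rises, from 118 to 279 CPM in WT macrophages for example, while the long-end line of WT macrophages falls from 1146 to 851 CPM.

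The same comparison was made in stromal-gated barcodes, a gate meant for adipose progenitors and fibroblasts. Without Mki67 or Top2a the members were at 267 CPM in WT (4349 barcodes), 314 in db/db at 8 weeks (6937), 696 in db/db at 16 weeks (1154) and 240 in HFD (1536). With it they were at 1945 (105 barcodes), 1465 (318), 4483 (47) and 686 CPM (115). All 4 values with Mki67 or Top2a exceeded those without it in the same library, with log2 ratios of 2.87, 2.22, 2.69 and 1.52, and the lowest of them, in HFD, lay just under the highest level without it.

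Of 38 members tested, 33 rose and 0 fell, against 10.8% and 8.88% of 12314 genes. The median was 3.51 on the log2 scale against −0.06 over all genes. Without the db/db 16-week library 30 of 38 members rose, against 1297 of 12932 genes. Hist1h2ap had the smallest adjusted p, with 5.90 ± 0.23 on the log2 scale (n = 4, edgeR quasi-likelihood test with Benjamini-Hochberg adjusted p = 1.13e-10). Its level went from 5.24 CPM in WT, 5.92 at 8 weeks, 42.4 at 16 weeks and 1.23 in HFD to 615, 307, 2415 and 40.9 CPM. Hist1h2ae (5.70 ± 0.27), Hist1h3c (7.53 ± 0.43), Hist1h2ab (6.44 ± 0.38), Hist1h1b (5.45 ± 0.34) and Hist1h4d (2.22 ± 0.15) followed. Hist1h4d is a long-end gene, and it went from 16.9, 21.2, 18.4 and 7.62 CPM to 86.3, 98.6, 128 and 30.1 CPM, with the groups not overlapping.

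Of the 43 short-end members 22 could be tested, and all 22 rose, with a median of 5.54 on the log2 scale. Of 16 long-end members tested 11 rose, with a median of 1.78. A member could pass the minimum count through the arm where it was high, so these counts describe only the members that entered. Hist1h3b, for example, had 0, 0, 0 and 1 UMIs in WT, 8 weeks, 16 weeks and HFD without Mki67 or Top2a, and 11, 8, 10 and 4 with it. The 5 members that did not pass were long-end: Hist1h2bc (0.20 ± 0.15), Hist3h2a (−0.50 ± 0.27), Hist4h4 (0.94 ± 0.61), Hist1h4c (1.32 ± 0.49) and Hist2h3c1 (0.19 ± 0.42). Hist1h1c rose here, by 0.67 ± 0.13, from 83.2, 75.9, 168 and 54.1 CPM to 158, 130, 221 and 112 CPM. Of 36 members tested in both gates, 23 rose in both, 8 rose only in the stromal-gated test and 1, Hist1h4c, only in the macrophage-gated one. The last counts do not compare the gates, which is done next.

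S-phase genes rose for 8 of 8 and G2/M genes for 8 of 8, which was again built into the gate. A rise of the members was favoured by it here as well. Chaperones rose for 6 of 8 (Asf1b 4.93, Chaf1b 2.38, Chaf1a 2.14) and replacement histones for 7 of 11 (Cenpa 4.11, H2afx 2.39, H2afz 1.95). Among 12 processing genes tested, Eri1, which trims histone mRNA ends, rose by 0.89 and Slbp by 0.54 on the log2 scale. The macrophage markers Adgre1 (1.67), Csf1r (1.30) and Cd68 (1.20) also rose in these stromal-gated sums, where the list summed to 118 to 1096 CPM with Mki67 or Top2a and 147 to 398 CPM without, with 3 of its 8 markers at 0 in db/db at 16 weeks. Stromal markers were lower for 5 of 8 genes, and the part of this admixture in the result was not tested. In barcodes of 3000 to 15000 UMIs alone, 20 of 26 members rose, against 907 of 11496 genes.

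**Figure D3:**
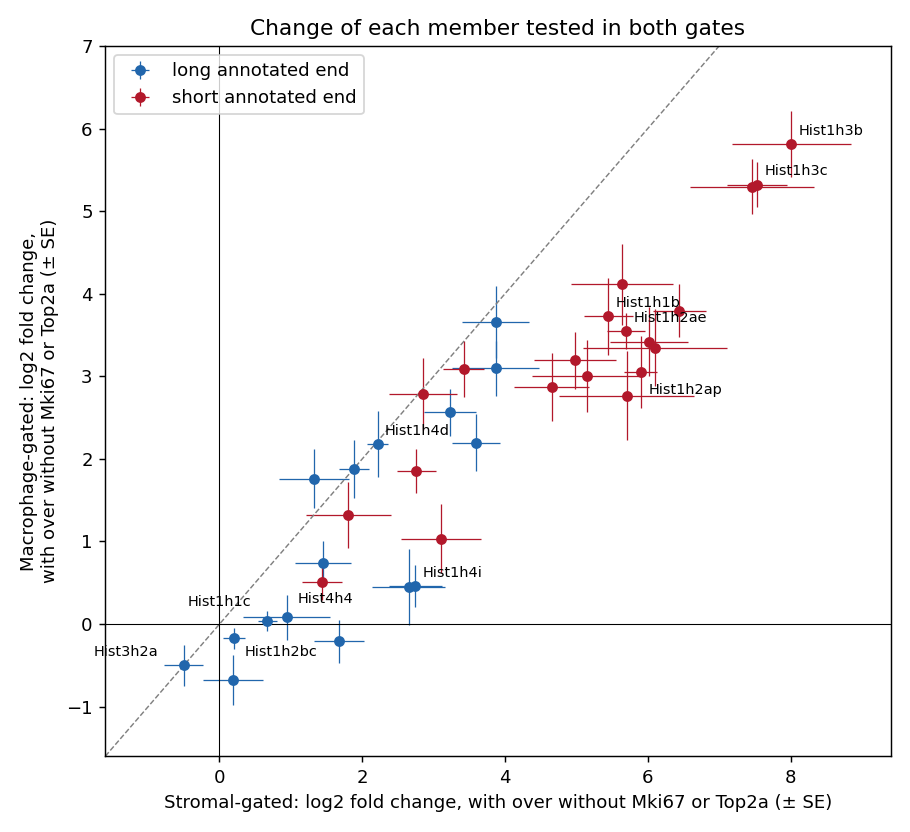
Log2 fold change with over without a Mki67 or Top2a UMI for the 36 members tested in both gates, stromal-gated on the x axis and macrophage-gated on the y axis, with bars of 1 SE from the edgeR fit and colours by annotated 3′ end; the dashed line marks equal change. Short-end members lie toward the upper right, Hist1h3b at 8.01 and 5.81 for example, and Hist1h2bc and Hist3h2a lie near 0 on both axes. Hist1h3b had 0 or 1 stromal-gated UMIs in each library without Mki67 or Top2a.

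Whether the change with Mki67 or Top2a differed between the gates was tested with an interaction term. Library was an additive term in this fit, so the arms were not paired within each gate. Of 47 members tested, 0 passed in either direction (edgeR quasi-likelihood test), against 0% of 13494 genes higher and 0.289% lower. At the unadjusted threshold 19 members passed, against 1115 genes, and DESeq2 called 4 members lower, against 157 genes lower. The median difference of the members was −1.35 on the log2 scale, the macrophage-gated change being smaller, against −0.05 over all genes. The closest were Hist1h4i (−2.59 ± 0.56) and Hist1h2ap (−2.79 ± 0.62), with adjusted p of 0.0743 and 0.0759 (edgeR quasi-likelihood test, Benjamini-Hochberg, n = 4 libraries).

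Among barcodes without Mki67 or Top2a, macrophage-gated sums were compared with stromal-gated ones. The members were at 1264 against 267 CPM in WT, 722 against 314 in db/db at 8 weeks, 865 against 696 in db/db at 16 weeks and 346 against 240 in HFD, log2 ratios of 2.24, 1.20, 0.31 and 0.53. The direction was shared by all 4 libraries, with a ratio in WT well above the others. Of 31 members tested, 16 were higher in the macrophage-gated sums and 0 lower, against 25.1% and 28.6% of 13908 genes.

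Hist1h4i, an H4 gene, led this list, with 24.2, 12.8, 13.5 and 7.83 CPM in macrophage-gated and 1.51, 2.12, 2.91 and 1.72 CPM in stromal-gated sums of WT, db/db at 8 weeks, db/db at 16 weeks and HFD. The groups did not overlap, and its log2 fold change was 3.05 ± 0.35 (n = 4, edgeR quasi-likelihood test with Benjamini-Hochberg adjusted p = 5.39e-04). Hist1h2ae (2.07 ± 0.36), Hist1h2ap (2.14 ± 0.39), Hist1h2bg (3.26 ± 0.65), Hist1h1c (1.42 ± 0.30) and Hist1h1a (2.45 ± 0.53) followed, and Hist1h2bc was higher by 1.62 ± 0.36. Here long-end and short-end members were both called, 8 of 19 and 8 of 12. Hist1h1e (−0.37 ± 0.45) and Hist1h4d (0.01 ± 0.28) did not pass.

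This count depended on single libraries. Without WT 10 of 30 members passed the threshold, and without db/db at 8 weeks 10 of 29. Without db/db at 16 weeks 11 of 29 passed, and without HFD 19 of 31. All were higher in the macrophage-gated sums, as were 3428 of 13612, 2207 of 13410, 3049 of 13728 and 2825 of 13568 genes in the same order. The 8 S-phase genes summed to 173 to 307 CPM in the macrophage-gated barcodes without Mki67 or Top2a and to 65.8 to 99.5 CPM in the stromal-gated ones, and 5 of the 8 were higher in the test. The part of cycling cells that had no UMI of Mki67 or Top2a was not tested. Of the other lists, 6 of 11 replacement histones were higher and 3 lower, 2 of 8 chaperones higher and 1 lower, and 3 of 12 processing genes higher.

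Between libraries, the macrophage-gated barcodes without Mki67 or Top2a held fewer member UMIs by CPM in each obese group than in WT, by −0.81 at 8 weeks, −0.55 at 16 weeks and −1.87 in HFD on the log2 scale. A member entered the counts of folds below with at least 20 UMIs summed over both libraries, so it could enter through the library where it was high. These counts therefore describe the members that entered and are not read as support for a direction. In HFD, 20 of 25 members that entered were at least 2-fold lower than in WT and 0 at least 2-fold higher, where 9.70% and 13.8% of all genes were, and the median of all genes was shifted by 0.13. Only 31.3% of HFD barcodes passed the quality limits, and the part of this selection was not tested. Hist1h1e went from 57.4 CPM in WT, 40.1 at 8 weeks and 58.6 at 16 weeks to 3.79 in HFD. Hist1h2ac, an H2A gene with a long annotated end, was at 48.3, 22.8, 4.83 and 2.27 CPM, and Hist1h3d at 24.4, 7.67, 1.41 and 2.02 CPM.

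At 16 weeks the picture was mixed, with 10 of 30 members at least 2-fold lower, against 22.5% of genes, and 3 higher, against 15.2%, while the median of all genes was at −0.17. Hist2h2aa1 (2.89) and Hist1h2ap (1.57) were higher than in WT on the log2 scale, while Hist1h2bc (−0.88) and Hist1h1c (−0.92) were lower. At 8 weeks 5 of 30 were at least 2-fold lower, against 5.36%, and 0 higher, against 4.84%. S-phase genes summed to 173 CPM in WT, 194 at 8 weeks, 307 at 16 weeks and 255 in HFD in these barcodes.

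In macrophage-gated barcodes with Mki67 or Top2a, 44 members entered at 16 weeks, 31 at 8 weeks and 24 in HFD, by the same minimum. At 16 weeks 30 of the 44 were at least 2-fold higher than in WT, against 23.4% of genes, and 2 were lower, against 22.9%. Hist1h2ap was higher by 4.74 on the log2 scale (4.48 to 5.02), and without it the summed ratio went from 2.12 to 1.30. At 8 weeks 5 of 31 were at least 2-fold higher, against 8.73%, and 0 lower, against 6.85%. In HFD 4 of 24 were higher, against 18.3%, and 9 lower, against 10.1%, with the median of all genes at 0.22. Hist1h2bc was at −0.21, −0.13 and −1.14 against WT in db/db at 8 weeks, db/db at 16 weeks and HFD. These are single libraries, and the genotype, strain, age, diet, sex and handling of each cannot be told apart.

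Stromal-gated barcodes without Mki67 or Top2a gave log2 ratios to WT of 0.23 at 8 weeks, 1.38 at 16 weeks and −0.15 in HFD. Hist1h1e had 33.4, 37.4, 220 and 11.7 CPM there, the 16-week value lying far above the others. Hist1h2bc was at 73.3, 108, 165 and 107 CPM, higher than WT in all 3 obese groups, whereas in macrophage-gated barcodes it was lower than WT in all 3. With Mki67 or Top2a the stromal ratios were −0.41, 1.20 and −1.50, the 16-week value resting on 47 barcodes.

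Shares of barcodes with a member UMI depend on depth, so each barcode was thinned to 2000 UMIs. In macrophage-gated barcodes without Mki67 or Top2a, the share with any member UMI was 72.4% in WT (95% exact binomial interval 69.1 to 75.5), 60.3% at 8 weeks (57.8 to 62.7), 65.6% at 16 weeks (63.0 to 68.1) and 38.5% in HFD (35.7 to 41.4). Unthinned, the shares were 86.1%, 76.8%, 84.0% and 66.3%. Thinning left out 38, 300, 218 and 12 barcodes. In stromal-gated barcodes the thinned shares were 33.5%, 40.6%, 65.1% and 36.6%, below the macrophage-gated shares in WT and at 8 weeks. At 16 weeks and in HFD the intervals of both gates overlapped (61.7 to 68.5 and 34.1 to 39.1 in stromal-gated barcodes).

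Hist1h2ap was present in 50.3% of thinned macrophage-gated barcodes with Mki67 or Top2a at 16 weeks (46.4 to 54.2), against 6.87% in WT, 9.18% at 8 weeks and 3.62% in HFD. Without Mki67 or Top2a it was present in 15.8% at 16 weeks, 6.72% in WT, 3.36% at 8 weeks and 0.0855% in HFD. In stromal-gated barcodes without Mki67 or Top2a it was present in 2.99% at 16 weeks (1.91 to 4.45), 0.670% in WT, 0.828% at 8 weeks and 0.266% in HFD. No gated cell type is known to lack these genes, so no share here stands for free RNA alone. The macrophage shares of WT, 8 and 16 weeks lay above the stromal ones, and the share in HFD did not.

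Within the macrophage-gated barcodes with Mki67 or Top2a, those leaning to S-phase genes were set against those leaning to G2/M genes. Barcodes with more UMIs of 8 S-phase genes than of 8 G2/M genes were called S-leaning and those with fewer G2/M-leaning. This gave 98 and 10 barcodes in WT, 410 and 69 in db/db at 8 weeks, 370 and 239 in db/db at 16 weeks and 217 and 79 in HFD, with 21.4 to 51.8% of barcodes within 1 UMI of the division or on it. Even without Mki67 or Top2a, macrophage-gated barcodes held the S-phase list at 173 to 307 CPM and the G2/M list at 7.34 to 39.7 CPM. A barcode could therefore be S-leaning through this baseline, and the label does not by itself place a barcode in S phase. Because WT had 10 G2/M-leaning barcodes, it was left out of the test.

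Summed members were at 1074 CPM in S-leaning and 2468 in G2/M-leaning barcodes of WT, 1173 and 3060 at 8 weeks, 5560 and 3696 at 16 weeks and 607 and 1102 in HFD. In the G2/M-leaning barcodes of WT a single barcode held 119 of the 193 member UMIs, a spread that counting intervals do not cover. The log2 ratio of S-leaning over G2/M-leaning was thus −1.20, −1.38 and −0.86 in WT, db/db at 8 weeks and HFD, and 0.59 at 16 weeks (0.55 to 0.62). The 16-week library went the other way from the rest. Hist1h1b had ratios of −1.36, −2.28 and −1.46 against 1.26 at 16 weeks, and Hist1h2ap −2.20, −1.76 and −1.03 against 1.001. Hist1h1c had −0.54, −0.55 and −0.25, and −0.85 at 16 weeks, so it did not turn.

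Over the 3 libraries tested, 0 of 41 members were higher in S-leaning barcodes and 1 was lower, Hist1h4i (−0.92 ± 0.22, edgeR quasi-likelihood test with Benjamini-Hochberg adjusted p = 0.0479), against 1.07% and 1.97% of 9826 genes. Another 6 members passed the unadjusted threshold, all lower, and DESeq2 called 0. Without the 16-week library, 16 of 26 members were lower and 0 higher, against 330 and 246 of 8783 genes. That fit rests on 2 libraries. Hist1h4i was at 10.2 against 24.4 CPM at 8 weeks, 26.1 against 47.0 at 16 weeks and 11.2 against 25.6 in HFD. Replacement histones were lower for 4 of 9 genes, Cenpa (−2.32), H2afv (−1.41), H2afx (−1.29) and H2afz (−0.88), and S-phase and G2/M genes defined these barcodes and are not read. Long-end members had a median of −0.60 and short-end members of −0.29 on the log2 scale, against 0.01 over all genes.

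**Figure D4:**
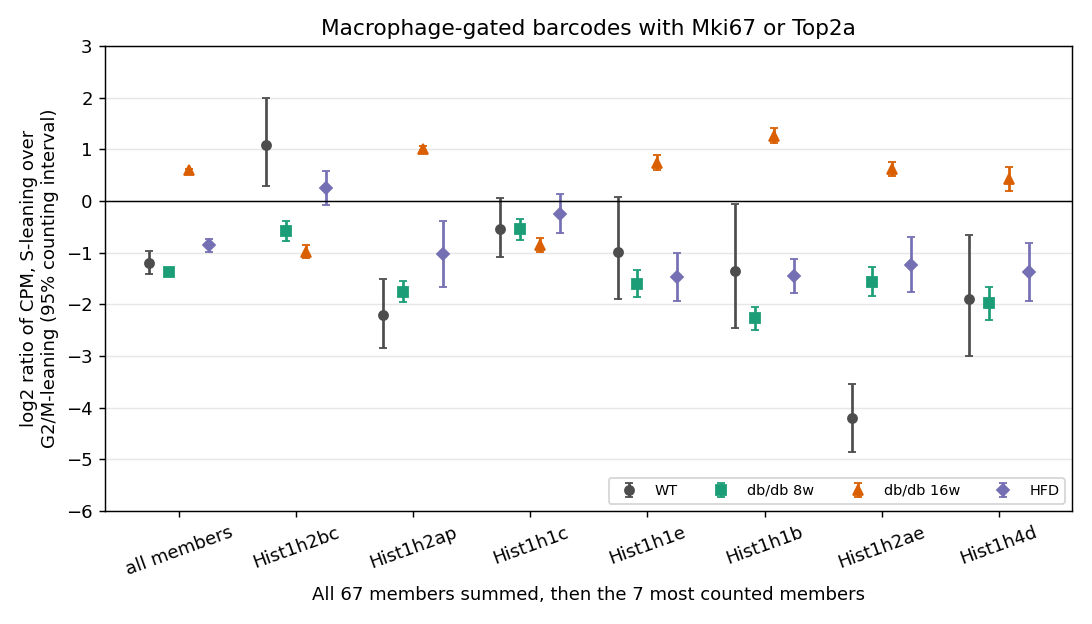
Log2 ratio of CPM in S-leaning over G2/M-leaning macrophage-gated barcodes with a Mki67 or Top2a UMI, for all 67 members summed and the 7 most counted, 1 point per library with 95% counting intervals. The summed value is 0.59 in the db/db 16-week library and between −1.38 and −0.86 in the others, while Hist1h1c is below 0 in all 4.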

How the data were processed

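Members and gene lists were chosen with earlier results of these data known. The authors processed the reads with Cell Ranger (7.1.0 per the labels' processing notes, 6.0.0 in the matrix headers, build mm10) and deposited raw UMI counts per gene and barcode for 4 libraries. How reads matching several copies were treated is not given in the sources used here.

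Following the study's limits, a barcode was kept if it had more than 250 but fewer than 6000 genes, more than 500 but fewer than 30000 UMIs, and less than 15% of them mitochondrial. Total counts per library limit the precision. A barcode was gated to the list with the most of its 8 markers, if at least 3 and at least 2 more than in any other list. Macrophage markers were Csf1r, Adgre1, C1qa, C1qb, C1qc, Cd68, Fcgr1 and Ms4a7, and stromal markers Pdgfra, Dpt, Lum, Dcn, Col1a1, Col1a2, Col3a1 and Fbn1. S-phase genes were Mcm3, Mcm5, Mcm6, Pcna, Tyms, Rrm2, Gins2 and Cdc6, and G2/M genes Ccnb1, Ccnb2, Cdc20, Plk1, Cenpe, Cenpf, Aurka and Tpx2. No doublet caller was run, and 1729 of 4025 ungated barcodes held 3 markers of a second list. The T cell list was gated but used for values only.

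UMIs were summed per library and arm. Tests used edgeR 4.0.16 in R 4.3.3 (TMM, filterByExpr, quasi-likelihood F-test, library as block, Benjamini-Hochberg over all genes tested, threshold 0.05), checked on simulated counts. An arm needed 20 barcodes in a test and 50 in a ratio between libraries, and ratios of smaller arms are given with their barcodes. The 2 arms of a library share its preparation, so the library is the pairing. P-values measure the spread of the contrast over 4 libraries, or 3 between S-leaning and G2/M-leaning barcodes. The fit of the difference between gates took library as an additive term over both gates. Its p-values therefore also take in how the gates differ from library to library. Folds between libraries used 1 CPM added and 20 summed UMIs. Intervals were exact Poisson, exact conditional binomial and Clopper-Pearson (95%). Members with at least 200 UMIs are named with their counts, and the 6 with the smallest adjusted p in each test in full. Genes, ends and overlaps came from GENCODE vM21 (99.6% of gene IDs matched) and promoters from RefSeq. Alternatives included DESeq2 1.42.0, other scaling and filters, each library left out, and other gates and depths.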

Additional observations from a re-analysis of the deposited data

Results flagged for a closer look

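Each value in these paragraphs is a log2 ratio of CPM in 1 library whose direction was opposite to that of another library, with both counting intervals clear of 0. With 1 library in a group, none of these differences between libraries was tested.

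In macrophage-gated barcodes with Mki67 or Top2a, the ratio of S-leaning over G2/M-leaning barcodes was 0.59 for all members in db/db at 16 weeks and −1.20 in WT, −1.38 in db/db at 8 weeks and −0.86 in HFD. The linker histone gene Hist1h1b had 1.26 at 16 weeks against −1.36, −2.28 and −1.46 in the same order, and Hist1h1e 0.74 against −1.603 at 8 weeks and −1.47 in HFD. The H2A genes turned too, with Hist1h2ae at 0.61 against −4.20, −1.57 and −1.24, and Hist1h2ap at 1.001 against −2.20, −1.76 and −1.03. For Hist1h4d the values were 0.42 against −1.91, −1.99 and −1.38. Hist1h2bc went the other way, at 1.08 in WT against −0.59 at 8 weeks and −0.98 at 16 weeks. The WT values rest on 10 G2/M-leaning barcodes, where a single barcode held 119 of the 193 member UMIs. The 16-week library also stood apart in Xist, Y-linked and mitochondrial levels.

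The ratio of macrophage-gated barcodes with over without Mki67 or Top2a was −0.16 for all members in WT and 0.93, 2.50 and 1.01 in db/db at 8 weeks, db/db at 16 weeks and HFD. Hist1h1c had −0.38 in WT against 0.22 at 8 weeks and 0.34 at 16 weeks. Hist1h2bc had −0.64 in WT and −0.21 in HFD against 0.095 at 8 weeks and 0.12 at 16 weeks.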

How the results depend on the processing

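For single members, 1417 of the alternative values over 129 results kept direction and side of the threshold, 69 lost the threshold, 47 gained it, and 1 turned, Hist2h2ac between S-leaning and G2/M-leaning barcodes, at −1.34 without db/db at 16 weeks and 0.90 without db/db at 8 weeks. Arms of a library are the only pairing, since groups share no animals. Without the library as a block, 0 of 35 members were called with over without Mki67 or Top2a in macrophage-gated barcodes, against 35 of 11151 genes higher. In stromal-gated ones 14 of 27 were higher, against 250 of 11293 genes. Between the gates 8 of 26 were higher, against 2341 of 12623 genes. Between S-leaning and G2/M-leaning barcodes 0 of 33 were called, against 0 of 9231 genes. Leaving out 1 library gave 22 to 27, 26 to 30, 10 to 19, 0 to 16 and, for the difference between gates, 0 to 2 members. In the first 3 comparisons 295 to 606, 782 to 1297 and 2207 to 3428 genes were higher, of at least 11614, 11744 and 13410 tested. In the last 2 comparisons 85 to 330 and 0 to 128 genes were lower, of at least 8783 and 13509. At least 39, 32, 29, 26 and 44 members were tested in the same order. The 16 rest on leaving out db/db at 16 weeks, and WT was not in that fit. With 3000 to 15000 UMIs only, 20 of 26 members were higher in stromal-gated barcodes, against 907 of 11496 genes. Between S-leaning and G2/M-leaning ones 2 of 34 were lower, against 184 of 8846 genes. The latter count was 0 of 41 with DESeq2, 2 of 41 with library totals, 7 of 61 with no filter, 0 of 41 with no upper limits and 0 of 38 with a lead of 4 markers. Genes lower in the same order were 148 of 9826, 242 of 9826, 324 of 16886, 247 of 10100 and 164 of 9374. The difference between gates gave 4 of 47 members with DESeq2, 4 of 65 with no filter and 1 of 48 at 2 UMIs of Mki67 and Top2a, all lower. Genes lower in the same order were 157 of 13494, 162 of 22669 and 59 of 13280. Library totals moved the median of all genes between gates to −0.26, where 13 of 31 members were higher, against 2693 of 13908 genes.

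The level against WT (log2) of db/db at 8 weeks was 0.48 with no upper limits, 0.45 with all deposited barcodes, −0.31 as mean UMIs per barcode, 0.51 without Hist1h2bc and 0.39 without Hist1h2ap. At 16 weeks it was 2.07 with mitochondrial UMIs left out of the total, 1.38 as the mean, 2.46 without Hist1h2bc and 1.49 without Hist1h2ap. In HFD it was −0.63 with all barcodes, −0.37 without mitochondrial UMIs, −0.80 as the mean, −0.56 without Hist1h2bc and −0.41 without Hist1h2ap. The mean turned the 8-week direction because its barcodes were shallower, with a median of 3193 UMIs against 6218.5 in WT. Leaving out Hist1h2ap was chosen after seeing the data.

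In macrophage-gated barcodes without Mki67 or Top2a, the ratio at 8 weeks was −0.99 as the mean and −0.72 without Hist1h2bc. At 16 weeks it was −0.62 without mitochondrial UMIs, −0.36 without Hist1h2bc, −0.68 at 3000 to 15000 UMIs and −0.74 without Hist1h2ap. In HFD it was −2.02 with all barcodes and −2.02 at 3000 to 15000 UMIs, −1.80 as the mean and −1.80 with a lead of 4, and −2.13 without Hist1h2bc. With Mki67 or Top2a, the 8-week ratio was 0.41 with all barcodes, 0.19 as the mean, 0.44 without Hist1h2bc, 0.37 with a lead of 4 and −0.11 at 3000 to 15000 UMIs, a turn whose cause was not tested. At 16 weeks it was 2.52 without Hist1h2bc, 2.27 with a lead of 4, 1.94 at that depth and 1.30 without Hist1h2ap, and in HFD −0.86 as the mean, −0.55 without Hist1h2bc and −0.47 with a lead of 4.

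In stromal-gated barcodes without Mki67 or Top2a, the 8-week ratio was −0.75 as the mean, which turned it, 0.086 without Hist1h2bc and 0.31 at 3000 to 15000 UMIs. At 16 weeks it was 0.23 as the mean, 1.46 without Hist1h2bc and 1.32 without Hist1h2ap. In HFD it was −0.24 with all barcodes, −0.058 without mitochondrial UMIs, −0.74 as the mean, −0.55 without Hist1h2bc, −0.037 with a lead of 4 and −0.024 at 3000 to 15000 UMIs. With Mki67 or Top2a, the 8-week ratio was −0.12 with no upper limits, −0.10 with all barcodes, −1.07 as the mean and −0.20 without Hist1h2ap, and the HFD ratio −1.99 as the mean, −1.32 with a lead of 4, −0.90 at that depth and −1.04 without Hist1h2ap.

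Thinned to 1000 UMIs, the share with a member UMI in macrophage-gated barcodes was 54.0, 40.7, 47.8 and 24.6% without Mki67 or Top2a in WT, db/db at 8 weeks, db/db at 16 weeks and HFD, and 55.0, 49.2, 67.9 and 34.2% with it. In stromal-gated barcodes it was 19.7, 24.2, 43.5 and 20.1% without, and 44.2, 43.6 and 33.0% with it in WT, at 8 weeks and in HFD. One library in a group, shared 3′ sequence and poly(A) priming limit every value. How much histone mRNA that ends at the stem-loop was missed or counted was not tested.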

Other observations

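The T cell and endothelial gates are given as values only. In T cell-gated barcodes with Mki67 or Top2a the members reached 16363 CPM in db/db at 16 weeks (95% Poisson interval 15032 to 17780), from 9 barcodes and 557 UMIs, 2068 CPM at 8 weeks from 11 barcodes, 2654 CPM in HFD from 6 and 1631 CPM in WT from 3. Without Mki67 or Top2a the T cell-gated level was 1598 CPM in WT, 731 at 8 weeks, 1081 at 16 weeks and 192 in HFD, from 16, 80, 29 and 16 barcodes. In endothelial-gated barcodes without Mki67 or Top2a the members were at 343 CPM in WT (14 barcodes), 330 at 8 weeks (73), 657 at 16 weeks (1316) and 253 in HFD (1266), and with it at 1453 CPM at 16 weeks (16 barcodes) and 652 in HFD (167).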
